A study of Mus musculus with 4 samples.

Results

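The 7 MHC class II presentation genes, Cd74, H2-Aa, H2-Ab1, H2-Eb1, H2-DMa, H2-DMb1 and Ciita, were followed through the injured mouse Achilles tendon. They were found by their symbols, on a list drawn up with earlier results of these data known, and all 7 were present among the 32285 genes of the count matrices. The tissue was cut into longitudinal frozen sections of 10 µm for Visium arrays, on which RNA is captured by a grid of barcoded spots and counted as unique molecular identifiers (UMIs). There were 2 sections from TrkA WT mice with the treatment given as control (WT 1 and WT 2) and 2 from TrkA F592A mice treated with 1NMPP1 (F592A 1 and F592A 2). All mice were 12 weeks old at surgery, both sexes were used, and all received a punch of 0.5 mm about 2 mm above the heel bone, with tissue taken 14 days later. TrkA is the nerve growth factor receptor of pain-sensing and sympathetic nerves. With the F592A substitution its kinase can be blocked by 1NMPP1, so the comparison concerns the injury site with and without TrkA inhibition. Allele and drug differ at once between the groups, and no label states whether WT mice were given 1NMPP1. The substitution and the drug act on the protein, so the level of the TrkA transcript checks neither label.

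The series pooled 4 mice per genotype and its labels tie no section to an animal, so every p-value below measures only the spread between sections. The sections held 30154873 to 43957617 UMIs over 2027 to 3047 tissue spots, of which 3 or 4 per section fell under 500 UMIs and were left out. WT 2 stood apart in sex-linked RNA, with 4207 UMIs of Xist against 7 to 12 in the other sections, and 23 UMIs of 4 Y-linked genes against 7522 to 7918. Each spot covers several cells. Spots were therefore classed by 12 lists of tissue marker genes, none of which holds a class II gene, and a class carries the name of its list. In the tendon class all 10 markers, among them Tnmd and Scx, were higher than outside it in every section, and in the other 9 classes tested this held for every marker except Prg4 of the sheath fibroblast list.

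MHC class II molecules show peptides from taken-up proteins to CD4 T cells. H2-Aa with H2-Ab1 encodes the I-A molecule, and H2-Eb1 encodes the beta chain of I-E. Cd74, the invariant chain, blocks the peptide groove and guides new class II molecules to endosomes. There H2-DM, made of H2-DMa and H2-DMb1, swaps the last piece of Cd74 for antigen peptides. Ciita is the co-activator that switches the whole group on, and interferon gamma is its best known inducer. Dendritic cells, B cells and epidermal Langerhans cells carry class II constantly, and macrophages to a degree that varies with their state.

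Ciita does not bind DNA itself. It is recruited by factors sitting on a short conserved module upstream of class II genes, which has an X box bound by the RFX complex and a Y box, an inverted CCAAT, bound by NF-Y. On build GRCm38 the chain and H2-DM genes lie on chromosome 17, with H2-DMa at chr17:34119693-34139101, H2-DMb1 at chr17:34153191-34160229, H2-Ab1 at chr17:34263227-34269418, H2-Aa at chr17:34282744-34287823 and H2-Eb1 at chr17:34305867-34316674. Ciita lies at chr16:10480014-10531064. RefSeq promoters were at hand for 4 of the 7 genes. To show the module in these genes, the stretch from 110 to 31 bases before the start is printed for the 3 whose promoter held the letters GNAAC followed by ATTGG, given in capitals.
H2-Aa: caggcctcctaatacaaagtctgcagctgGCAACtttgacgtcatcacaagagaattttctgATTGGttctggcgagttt
H2-DMb1: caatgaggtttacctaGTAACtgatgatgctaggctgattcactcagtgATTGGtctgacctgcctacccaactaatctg
H2-Eb1: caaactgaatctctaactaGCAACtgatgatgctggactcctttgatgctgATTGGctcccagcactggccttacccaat
These stretches lie at chr17:34287854-34287933 on the minus strand, chr17:34153081-34153160 on the plus strand and chr17:34305757-34305836 on the plus strand. The starts of the capitals were 33 letters apart in H2-Aa and H2-DMb1 and 32 in H2-Eb1. The pair, sought on both strands within 250 bases before the start with its starts 28 to 36 letters apart and so without overlap, was present in 420 of 32851 RefSeq promoters (1.28%). It was also found in H2-Eb2, H2-Oa and H2-Ob of the same locus, and not in the 2 windows of H2-DMa or in that of H2-DMb2. The letters and their distance were chosen after these sequences had been read, so the matches are a description.

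In whole sections each of the 7 genes had a lower level in both F592A 1NMPP1 sections than in both WT control sections, and none of them passed the test. Their summed level was 2278 and 1856 CPM (UMIs scaled to a section total of 1000000) in WT 1 and WT 2, and 1023 and 1249 CPM in F592A 1 and F592A 2. The F592A mean of 1136 ± 160 CPM (SD, n = 2) was 55.0% of the WT mean of 2067 ± 298 CPM. Both F592A sections lay below both WT sections for 7 of 7 genes, against 20.3% of the 16347 genes tested. With edgeR's quasi-likelihood test, 0 of 7 passed an adjusted p of 0.05, as did 0.0489% of all genes in this direction. Unadjusted p under 0.05 held for 6 of the 7, all lower, against 6.48% of genes tested. DESeq2 called 6 of 7 lower, and 1.26% of all genes.

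Cd74, a gene of chromosome 18, had 870 and 717 CPM in the WT sections and 382 and 472 CPM in the F592A sections. The groups did not overlap, and the fitted difference (F592A over WT) was −0.92 ± 0.16 on the log2 scale (SE, edgeR adjusted p = 0.196). The antigen-binding chains differed by nearly the same amount. H2-Aa had 480 and 369 CPM in WT against 204 and 246 CPM in F592A, a log2 difference of −0.94 ± 0.16 (edgeR adjusted p = 0.191). H2-Ab1 had 491 and 417 CPM in WT against 229 and 285 CPM in F592A, a log2 difference of −0.84 ± 0.14 (edgeR adjusted p = 0.196). H2-Eb1 had 364 and 290 CPM in WT against 165 and 195 CPM in F592A, a log2 difference of −0.88 ± 0.14 (edgeR adjusted p = 0.176). In all 3 chains WT 1 was the highest section and F592A 1 the lowest.

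The peptide-exchange subunits had smaller fitted differences than the chains, a gap that was not tested. H2-DMa had 30.1 and 27.7 CPM in WT against 18.1 and 21.6 CPM in F592A, a log2 difference of −0.57 ± 0.11 (edgeR adjusted p = 0.197). H2-DMb1 had 36.9 and 31.6 CPM in WT against 22.2 and 24.8 CPM in F592A, a log2 difference of −0.57 ± 0.10 (edgeR adjusted p = 0.196). H2-DMb1 and its neighbour H2-DMb2 are close in sequence, so the split of reads between them is uncertain. Ciita was sparse, with 240 and 135 UMIs in WT and 129 and 160 UMIs in F592A, or 5.59 and 4.48 CPM against 2.93 and 4.31 CPM. F592A 2 nearly reached WT 2, and the log2 difference of −0.50 ± 0.24 did not pass (edgeR adjusted p = 0.495).

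**Figure D1:**
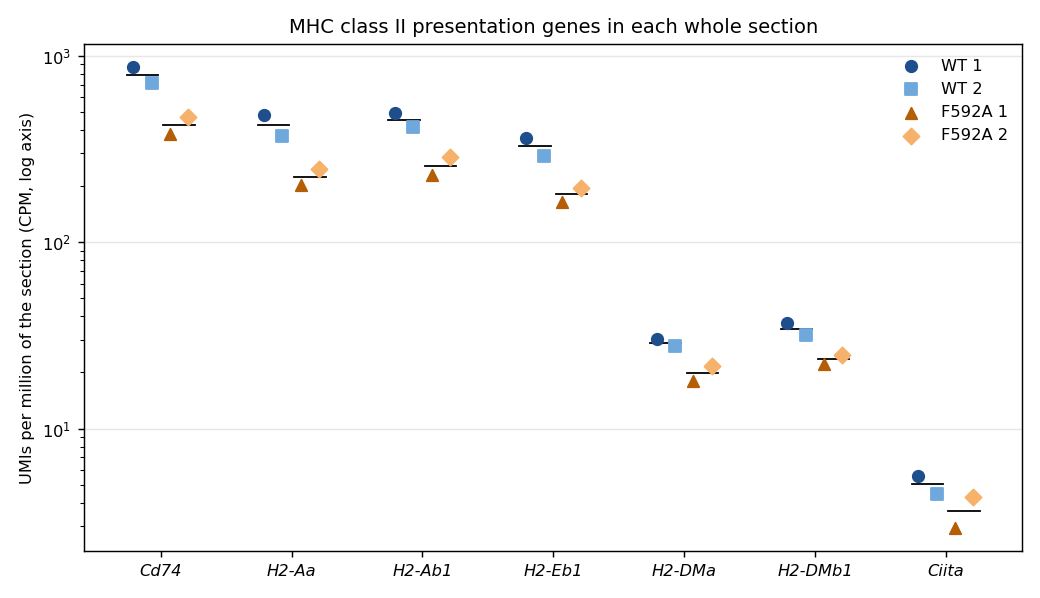
Level of each class II presentation gene in the 4 whole sections (CPM, log axis); points are sections and black lines group means. For each of the 7 genes both F592A sections lie below both WT sections, with the smallest gap in Ciita.

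Which sections entered decided how many of these genes passed. Without WT 1 edgeR called 2 of 7 (H2-Aa and H2-Eb1), and without WT 2 it called 5, all but H2-DMa and Ciita, with an adjusted p of 0.0271 for Cd74. Calls over all genes grew as well, to 0.814% lower without WT 1 and 1.47% without WT 2. Without either F592A section edgeR called 0 of the 7 and 0 of all genes. The median log2 difference over the 7 genes was −0.84 with all sections and between −0.97 and −0.72 with 1 section left out, against a median of −0.00034 over all genes tested.

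Shares within the pathway were steadier than the levels. Of the UMIs of Cd74 and the 3 chains together, Cd74 made up 39.5% and 39.97% in WT and 39.0% and 39.4% in F592A. H2-DM made up 4.78% and 5.23% of the H2-DM and chain UMIs in WT, and 6.31% and 6.004% in F592A, so both F592A sections lay above both WT sections. The 95% Wilson intervals, which cover counting error only, were 4.998% to 5.47% in WT 2, the higher WT section, and 5.74% to 6.29% in F592A 2, the lower F592A section. An exact permutation test of 2 sections against 2 cannot give a p under 0.3333, so this ordering is a description.

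Class II RNA also varied between tissues. Over the 10 classes with at least 50 spots in every section, Cd74 was highest in adipose spots (mean 1136 ± 734 CPM, SD over 4 sections) and lowest in fast muscle spots (256 ± 40.8 CPM). Sheath fibroblast spots followed with 1082 CPM and vessel spots with 994 CPM. These 3 could not be ordered beyond the spread, since each led the next in only 2 of 4 sections. Epidermis had 646 CPM, wound fibroblast spots 570 CPM, cartilage 498 CPM, tendon 491 CPM, slow muscle 430 CPM and hair follicle 379 CPM, again with neighbours that changed places between sections. The 3 chains and H2-DMb1 had the same leading classes, adipose, sheath fibroblast and vessel. Ciita was highest in epidermis, at a mean of 9.75 CPM, with 5.20, 19.6, 4.79 and 9.37 CPM in WT 1, WT 2, F592A 1 and F592A 2 from 5 to 20 UMIs each.

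**Figure D2:**
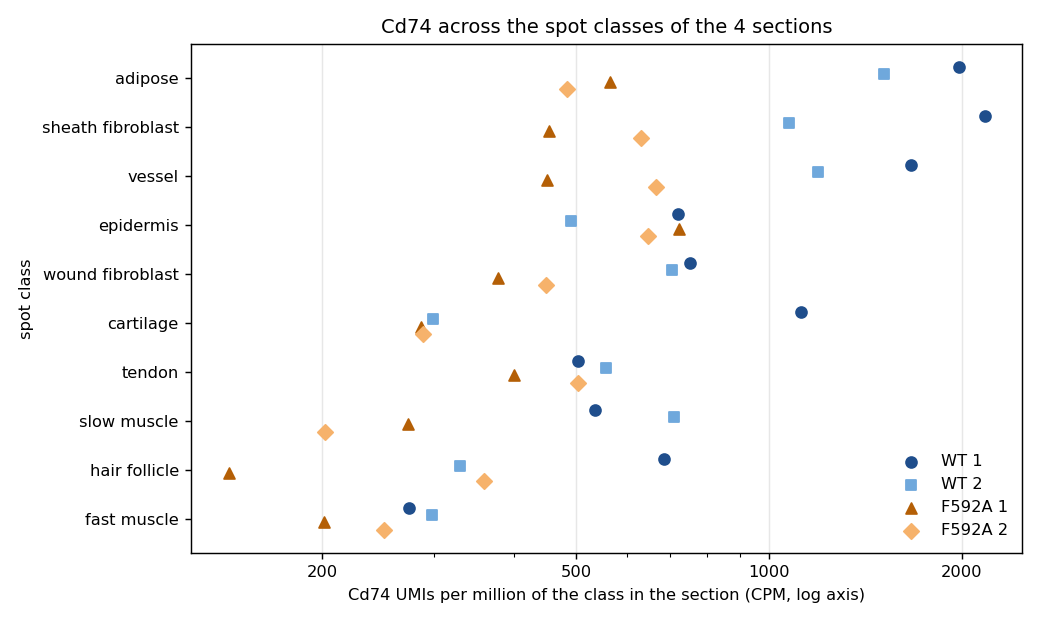
Cd74 in each spot class and section (CPM of that class, log axis), classes ordered by their mean. WT points lie far to the right of F592A points in adipose, sheath fibroblast and vessel spots, while the groups overlap in epidermis and tendon differs little.

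The order of tissues by mean Cd74 level was not the same in both groups. In WT, Cd74 reached 1984 and 1514 CPM in adipose, 2173 and 1074 CPM in sheath fibroblast and 1669 and 1191 CPM in vessel spots. In F592A the same classes had 563 and 483, 452 and 630, and 450 and 666 CPM. Epidermis, with 722 and 648 CPM, had the highest mean there, but in F592A 2 vessel spots lay above it. Cd74 in sheath fibroblast spots was 7.95 and 3.62 times its level in fast muscle spots in WT 1 and WT 2, and 2.24 and 2.52 times in F592A 1 and F592A 2. This ratio was larger in both WT sections than in either F592A section, which did not hold for tendon or epidermis over fast muscle.

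Within classes, 66 of 70 combinations of gene and class had enough counts to be tested, Ciita falling out in 4. Of the 66 fitted differences 61 were negative, 39 had an unadjusted p under 0.05 (38 of these lower in F592A), and edgeR called 5 after adjustment, all lower and all in vessel or slow muscle spots. Over all genes of these classes 0.0956% of tests were called lower and 4.88% were lower with an unadjusted p under 0.05. The 5 calls became 12 without F592A 1, 4 without F592A 2 (none of them among the 5), 11 without WT 1 and 23 without WT 2, while 0.529%, 0.0896%, 0.678% and 1.10% of all tests were called lower. In vessel spots, H2-Eb1 had 731 and 516 CPM in WT against 190 and 267 CPM in F592A, and fell by 1.41 on the log2 scale (SE 0.24, edgeR adjusted p = 0.0284). There H2-Aa, with 985 and 604 CPM against 246 and 319 CPM, fell by 1.45 (SE 0.26, edgeR adjusted p = 0.0332), and H2-Ab1, with 963 and 670 CPM against 281 and 379 CPM, fell by 1.27 (SE 0.24, edgeR adjusted p = 0.0469). So 3 of 7 class II genes were called lower in vessel spots, where 0.153% of genes were, and all 7 had both F592A sections below both WT sections, as 23.2% of genes did. Cd74 in vessel spots lay just outside the threshold with −1.32 ± 0.25 (edgeR adjusted p = 0.0510), and H2-DMa with −1.55 ± 0.30 (edgeR adjusted p = 0.0504). These 3 vessel calls were lost without F592A 1 (edgeR adjusted p 0.0919 for H2-Eb1, 0.0951 for H2-Aa and 0.149 for H2-Ab1) and without F592A 2 (0.0709, 0.113 and 0.112), and that of H2-Ab1 also without WT 1 (0.0717), with log2 differences of −0.99 or below throughout.

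In slow muscle spots, H2-Aa had 306 and 390 CPM in WT against 132 and 91.97 CPM in F592A and fell by 1.44 on the log2 scale (SE 0.22, edgeR adjusted p = 0.0286). Cd74, with 534 and 712 CPM against 272 and 202 CPM, fell by 1.19 (SE 0.21, edgeR adjusted p = 0.0375). Both were called lower, as 0.489% of genes were in this class, and all 7 members had F592A below WT, where 37.2% of genes did. Without F592A 2 the adjusted p was 0.131 for H2-Aa and 0.229 for Cd74, and without WT 2 it was 0.0816 and 0.144. WT 1 held 546 slow muscle spots and the other sections 116 to 167.

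Adipose, sheath fibroblast and wound fibroblast spots also had negative differences that did not pass. In adipose spots H2-Eb1 had 911 and 542 CPM in WT against 199 and 179 CPM in F592A (log2 difference −1.90 ± 0.35, edgeR adjusted p = 0.196), and all 7 genes were ordered F592A below WT, against 19.7% of genes. In sheath fibroblast spots Cd74 differed by −1.55 ± 0.30 (edgeR adjusted p = 0.0795) and 6 of 7 genes were so ordered, against 26.2%. In wound fibroblast spots, marked by Postn and Tnc, Cd74 had 752 and 705 CPM in WT against 378 and 447 CPM in F592A (log2 difference −0.85 ± 0.12, edgeR adjusted p = 0.126) and 7 of 7 were so ordered, against 19.2%. None of the 7 genes was called in these 3 classes, where 0.0313%, 0.175% and 0.0356% of genes were called lower by edgeR. With 1 section left out, calls appeared in sheath fibroblast spots, 4 without F592A 1, 4 without F592A 2, 3 without WT 1 and 5 without WT 2. In adipose spots there were 4 without F592A 1 and 3 without WT 1, and in wound fibroblast spots 3 without WT 2. DESeq2 called 4 in adipose, 0 in sheath fibroblast and 4 in wound fibroblast spots.

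In tendon spots the 2 groups lay close together. Cd74 had 502 and 557 CPM in WT against 400 and 503 CPM in F592A (log2 difference −0.30 ± 0.15, edgeR adjusted p = 0.468), and 0 of 7 genes had both F592A sections below both WT sections, as 16.2% of genes did. H2-DMb1 stood the other way round, with 22.1 and 22.6 CPM in WT and 27.8 and 33.9 CPM in F592A (log2 difference 0.38 ± 0.16, edgeR adjusted p = 0.415), an order shared by 28.1% of genes. Epidermis overlapped as well. Cd74 had 721 and 491 CPM there in WT and 722 and 648 CPM in F592A (log2 difference 0.09 ± 0.31, edgeR adjusted p = 0.985), and 3 of 7 genes were ordered F592A below WT, against 12.0%. In fast muscle this held for 4 of 7 genes (19.8% of all genes), in cartilage for 2 of 7 (17.3%) and in hair follicle for 2 of 7 (14.7%). The calls in these 5 classes were 0 for the 7 genes, beside 0.0481% of genes called lower in tendon, 0.059% in fast muscle, 0.0478% in cartilage and 0.0% in epidermis and hair follicle.

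**Figure D3:**
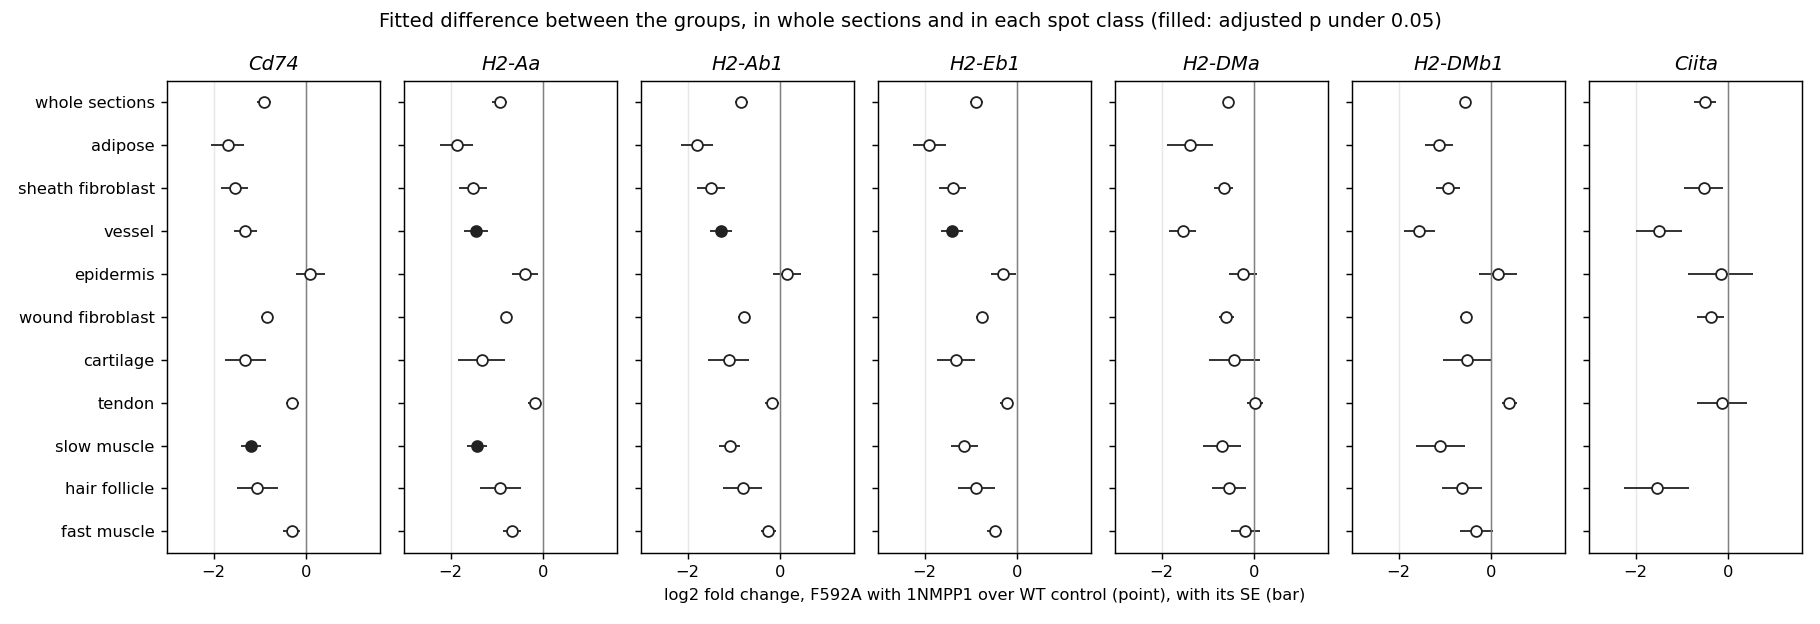
Fitted log2 difference (F592A with 1NMPP1 over WT control) of each class II gene in whole sections and in each spot class, with its SE as the bar; filled points passed an adjusted p of 0.05 and missing points had too few counts. Filled points are H2-Aa, H2-Ab1 and H2-Eb1 in vessel spots and Cd74 and H2-Aa in slow muscle spots. In tendon and epidermis Cd74 and the chains lie nearer 0 than in vessel spots, and H2-DMb1 in tendon lies above 0.

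Whether the difference between groups itself differed between classes was tested in 1 model over all classes with the section as a block. By edgeR 0 of the 7 genes passed, as did 0.21% of the 13824 genes tested. The unadjusted p was under 0.05 for 6 of them, from 0.00655 for H2-Ab1 (edgeR adjusted p = 0.317) and 0.0129 for Cd74 (adjusted p = 0.380) to 0.0468 for H2-Aa (adjusted p = 0.510). Without WT 2 edgeR called 2 of the 7 and 0.677% of all genes. A larger difference in vessel than in tendon spots is therefore not established by this test.

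The sections held different amounts of each tissue, with 54 to 490 tendon spots and 78 to 442 epidermis spots each. Spots classed as regenerating muscle, by a list that holds Myh3 and Myog, numbered 330 and 69 in WT and 17 and 6 in F592A, with 915 and 1370 CPM of Cd74 in WT and 376 and 384 CPM in F592A. They were too few in F592A to enter the 10 classes. Giving each of the 10 classes the same weight in every section left the members lower in F592A. The summed class II level was then 2757 and 1866 CPM in WT and 1025 and 1167 CPM in F592A, a log2 difference of −1.08 between the group means (exact two-sided permutation p = 0.3333, the smallest that 2 against 2 can give). With classes weighted by their share of all spots the difference was −0.83. With a doubled score for entering a class it was −0.46 (1265 and 1240 against 899 and 918 CPM). That score left 5 classes, without adipose, cartilage, sheath fibroblast, tendon and vessel spots. There the groups overlapped for H2-DMa, H2-DMb1 and Ciita.

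Class II RNA was patchy within the tissue. For equal depth 2000 UMIs were drawn from each spot that had at least 2000, and shallower spots were left out. The 10% of drawn spots with the most class II UMIs held 39.1%, 35.3%, 38.4% and 34.8% of them in WT 1, WT 2, F592A 1 and F592A 2. Without drawing, a spot's level correlated with the mean of its neighbours with r = 0.69 and 0.65 in WT and 0.54 and 0.57 in F592A. This was over 2016 to 3031 spots that share a library but differ in depth. The share of drawn spots with a Cd74 UMI was 58.4% and 55.5% in WT, of 2586 and 1737 spots, and 38.0% and 46.9% in F592A, of 2497 and 2690 spots, so the groups did not overlap. Without drawing to equal depth it was 76.3% and 79.4% against 64.1% and 78.4%, and the groups overlapped, with F592A 2 above WT 1. Those shares cover all kept spots, 3043 and 2024 in WT and 2834 and 2748 in F592A. The 2 measures therefore differ in their spots as well as in depth. In fast muscle spots, whose fibres are not antigen-presenting cells, it was 36.3%, 39.8%, 23.9% and 35.4% after drawing. A Ciita UMI was found in 0.851%, 1.38%, 0.320% and 0.818% of the drawn spots.

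**Figure D4:**
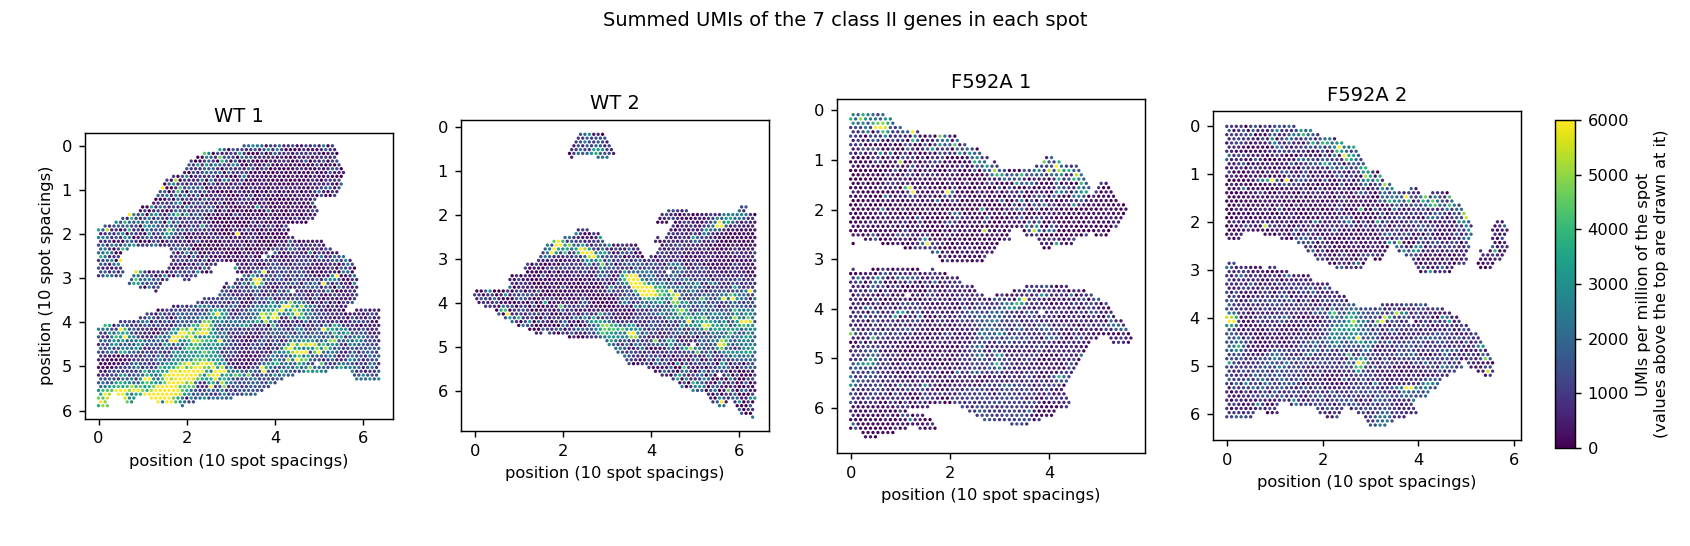
Spot maps of the summed class II genes in the 4 sections (colour: CPM of the spot; axes: position in units of 10 spot spacings). High spots form contiguous patches in WT 1 and WT 2 and are fewer and smaller in F592A 1 and F592A 2.

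Across spots of 1 section, Cd74 correlated with the chains at r = 0.48 to 0.52 in WT and 0.31 to 0.39 in F592A, with H2-DMa and H2-DMb1 at 0.15 to 0.35, and with Ciita at 0.06 to 0.16. With the summed macrophage list it was 0.51 and 0.39 in WT and 0.27 and 0.33 in F592A, and with the dendritic and Langerhans cell list 0.30, 0.21, 0.20 and 0.17. These correlations used counts not drawn to equal depth, and counting error lowers r more where counts are low. The median class II count of a drawn spot was 2 in each WT section and 1 in each F592A section. Whether co-expression differed between the groups was not tested. Over 46 sums of a class in a section, the genes most like Cd74 among 11713 were H2-Eb1, H2-Ab1 and H2-Aa (Pearson r of log2 CPM 0.98 each), followed by H2-DMb1 (0.88), with H2-DMa at 0.84 and Ciita at 0.61, rank 194. The 10 most alike genes outside the group were Cd52 (0.86), Klf10 (0.83), Psmb8 (0.82), Ifi30 (0.81), Naaa (0.81), Cfp (0.80), Chga (0.80), Laptm5 (0.80), Ptprc (0.79) and Ifngr1 (0.79). These sums share sections, so the values describe them and carry no test. They also pool both groups, so a group difference shared with Cd74 raises r. The group differences of these genes are therefore no separate result. Within WT sums and within F592A sums r was 0.94 and 0.62 for Cd52, 0.73 and 0.77 for Klf10 and 0.82 and 0.44 for Chga. For Psmb8 it was 0.86 and 0.85, both above its pooled value. Among these 10, Chga alone was called in whole sections, with 10.7 and 9.48 CPM in WT and 2.66 and 2.99 CPM in F592A (it fell by 1.86 on the log2 scale, SE 0.16, edgeR adjusted p = 0.0491).

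In whole sections core macrophage genes did not follow the class II genes. The 14 listed macrophage genes summed to 2905 and 3046 CPM in WT and 3135 and 2968 CPM in F592A, with overlapping groups, a median log2 difference of 0.02 and 0 called, with an unadjusted p under 0.05 only for Cd68, a lysosomal glycoprotein, at 47.3 and 58.6 CPM in WT against 75.8 and 66.8 CPM in F592A (0.40 ± 0.16, edgeR adjusted p = 0.416). Lyz2 made up the largest part of these sums, with 1524 and 1516 CPM in WT and 1662 and 1449 CPM in F592A. The complement genes C1qa, C1qb and C1qc followed, and the receptors Csf1r and Adgre1 are also on this list. In whole sections the ratio to this list therefore rests mostly on Lyz2 and the complement genes. Per 100 UMIs of that list there were 78.4 and 60.9 class II UMIs in WT 1 and WT 2 and 32.6 and 42.1 in F592A 1 and F592A 2. The same ratio was 123 and 107 against 40.3 and 50.2 in adipose spots, 97.9 and 55.3 against 29.4 and 32.4 in sheath fibroblast spots and 44.1 and 53.3 against 36.6 and 37.6 in tendon spots. In epidermis it was 131 and 209 in WT and 180 and 155 in F592A, and the groups overlapped. In vessel spots the ratio was 92.6 and 64.4 against 32.2 and 52.5, and in slow muscle spots 113 and 108 against 76.3 and 98.0. In both classes the macrophage list itself was lower relative to all UMIs in both F592A sections. It held 16134 of 3323024 and 9825 of 2058006 UMIs in WT vessel spots, against 8271 of 2213152 and 3346 of 1046121 in F592A. In slow muscle spots it held 3827 of 3158395 and 2045 of 1191842, against 689 of 727059 and 407 of 815470. In bulk sums of this kind, fewer class II-bearing cells and less class II RNA per cell cannot be told apart.

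**Figure D5:**
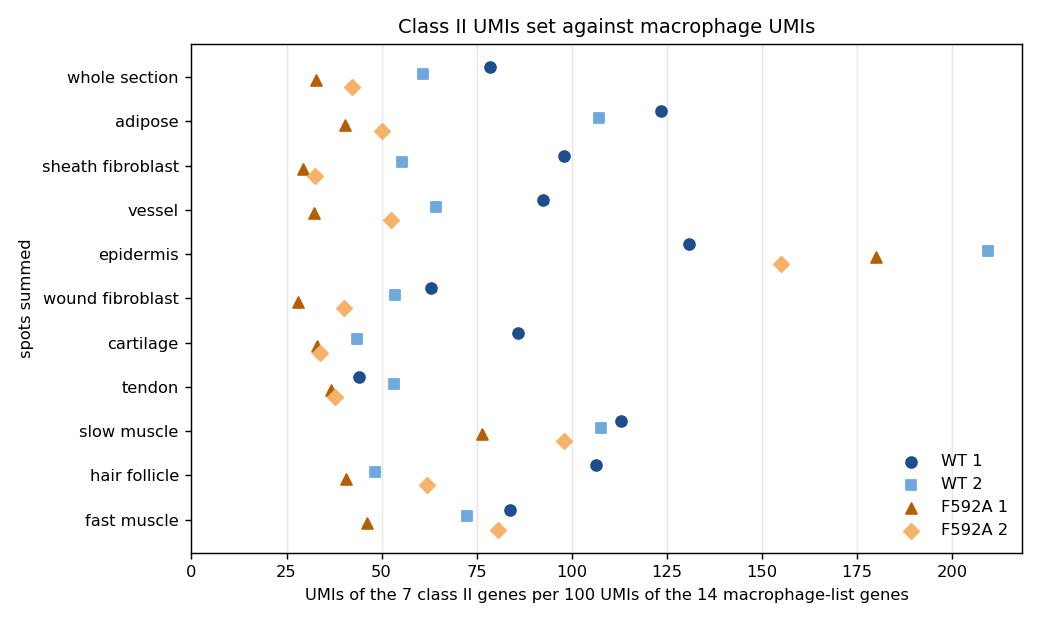
UMIs of the 7 class II genes per 100 UMIs of the 14 macrophage-list genes, in whole sections and spot classes (points are sections). In whole sections WT lies at 60.9 to 78.4 and F592A at 32.6 to 42.1, whereas epidermis lies at 131 or above in all sections with the groups mixed.

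Other carriers of class II were measured in the same sums. The 11 dendritic and Langerhans cell genes summed to 228 and 254 CPM in WT and 204 and 184 CPM in F592A, mostly Fscn1, which other cells also make, with a median log2 difference of −0.34, 9 of 11 negative and 0 called (3 lower and 1 higher with an unadjusted p under 0.05). The 3 lower ones by that measure were Cd209a, Itgax and Clec9a. Cd209a had 9.37 and 9.32 CPM against 4.94 and 7.74 CPM (log2 difference −0.59 ± 0.22). Itgax had 7.97 and 10.3 against 6.76 and 6.17 CPM (−0.52 ± 0.20), and Clec9a 0.746 and 0.630 against 0.409 and 0.297 CPM (−0.97 ± 0.39). Cd207, the Langerhans cell lectin, was the other way round, with 0.699 and 0.497 against 0.956 and 1.70 CPM (1.10 ± 0.40). The groups overlapped for Flt3 (0.08 ± 0.28), Zbtb46 (−0.24 ± 0.18) and Ccl22 (−0.03 ± 0.24). The 9 B and plasma cell genes summed to 30.5, 45.1, 25.3 and 37.6 CPM in WT 1, WT 2, F592A 1 and F592A 2, with 0 of 6 tested genes called (2 lower with an unadjusted p under 0.05), and Cr2 was at 0 in WT 1. Jchain, the joining chain of secreted antibody, had 0.489, 10.5, 0.0455 and 0.189 CPM, nearly all of it in WT 2. The 7 neutrophil genes summed to 44.3, 22.4, 46.9 and 39.2 CPM, with a median log2 difference of 0.67 over 5 tested genes, 0 called, and Ly6g at 0 in 3 sections. The part of these cells in the class II difference was not tested.

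T cell genes, the other side of class II presentation, were low throughout, with lower summed levels in both F592A sections than in both WT sections. The 11 genes summed to 24.4 and 27.96 CPM in WT and 13.3 and 18.6 CPM in F592A, all 11 fitted differences were negative with a median of −0.65, and 0 were called (3 with an unadjusted p under 0.05). Cd4, the co-receptor for class II, had 4.92 and 4.84 CPM in WT against 1.64 and 2.13 CPM in F592A (log2 difference −1.40 ± 0.22, edgeR adjusted p = 0.170), and Trac 3.73 and 3.55 against 1.501 and 1.89 CPM (−1.13 ± 0.23, edgeR adjusted p = 0.207). Cd4 is also made by some macrophages. In adipose spots the T cell list had 34.7 and 61.0 CPM in WT and 7.27 and 14.5 CPM in F592A, from 8 to 39 UMIs a section.

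Of the regulators upstream of the members, the interferon gamma genes were mostly negative and the promoter factors mixed. Of 14 tested genes of interferon gamma signalling and its targets 11 were negative, with a median of −0.31, 0 called and 2 with an unadjusted p under 0.05. These were Cxcl9, a T cell attractant, with 4.78 and 7.56 CPM in WT against 1.75 and 2.72 CPM in F592A (−1.498 ± 0.34, edgeR adjusted p = 0.231), and Socs1, the feedback inhibitor, with 23.4 and 27.99 against 19.0 and 16.7 CPM (−0.55 ± 0.15, edgeR adjusted p = 0.285). Gbp2 and Irf1 had log2 differences of −0.41 ± 0.17 and −0.28 ± 0.12. Ifng itself had 0.0663 to 0.136 CPM and was not tested. The 9 factors that bind class II promoters had a median of 0.04 with 4 negative, 0 called and only Spi1 at an unadjusted p under 0.05. Spi1, encoding the myeloid factor PU.1, had 23.3 and 22.7 CPM in WT against 31.4 and 30.8 CPM in F592A (0.42 ± 0.09, edgeR adjusted p = 0.229), while Irf8, Rfx5 and Rfxap had −0.22 ± 0.11, −0.24 ± 0.14 and 0.14 ± 0.10.

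Genes of neighbouring steps of presentation were not called either. The 9 genes of class II antigen processing, with the cathepsins Ctss and Ctsl, had a median log2 difference of −0.04, 7 negative and 0 called. March1, the ligase that removes class II from the surface, had −0.37 ± 0.17, Ifi30, the lysosomal thiol reductase, −0.21 ± 0.10, Ctsh 0.15 ± 0.11 and Lgmn 0.15 ± 0.14. The 11 genes of MHC class I presentation had a median of −0.12 with 8 negative and 0 called, Psmb9 at −0.40 ± 0.14, Psmb8 at −0.25 ± 0.10, Nlrc5, the class I counterpart of Ciita, at 0.49 ± 0.24 and Tapbp at −0.29 ± 0.24. Of 5 tested co-stimulatory genes 0 were called and the median was 0.18, with Cd80 at 2.75 and 0.995 CPM in WT against 6.32 and 5.42 CPM in F592A (1.61 ± 0.44, edgeR adjusted p = 0.282). The other genes of the class II locus were near the floor of detection, H2-DMb2 at 3.62 to 5.88 CPM and H2-Ob, H2-Oa and H2-Eb2 at 0.296 to 2.05 CPM, with log2 differences of −0.07 ± 0.27, 0.19 ± 0.28, −0.10 ± 0.43 and −0.998 ± 0.45 and 0 called. The groups overlapped for H2-DMb2, H2-Ob and H2-Oa, while H2-Eb2 was lower in both F592A sections than in both WT sections. None of the differences in this paragraph passed the threshold by edgeR, and with unadjusted p under 0.05 stood only Psmb9 (lower) and Cd80 (higher).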

How the data were processed

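Space Ranger 1.3.0 made the count matrices, per the file headers. The submitters' processing notes name build mm10 and Seurat 3. The deposited values are raw UMI counts per gene and tissue spot, with no normalization. Members and gene lists were chosen with earlier results of these data known.

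Spots with at least 500 UMIs were kept. A spot took the class of the marker list with the highest mean z-score of log counts, if at least 0.5, and otherwise stayed unclassed. Counts were summed per section, or per class and section, and the section was the replicate. CPM are UMIs scaled to a total of 1000000 per sum. Sums were tested with edgeR 4.0.16 on R 4.3.3 (quasi-likelihood, TMM, filterByExpr), with Benjamini-Hochberg adjustment over all genes tested and a threshold of 0.05. Classes were tested with at least 50 spots in every section and described with at least 20. SE is the log2 difference over the square root of F. The fits were tested on simulated data. Python 3.11.15, numpy 2.4.6, pandas 2.3.3, scipy 1.17.1 and matplotlib 3.10.9 served the rest. Likeness to Cd74 was Pearson r of log2(CPM + 1) over genes with a mean of at least 5 CPM.

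All 7 members were named, with up to 4 genes of smallest p from each list, all locus genes and the 10 genes most like Cd74. Values of Lyz2 and of the dendritic and Langerhans cell genes with overlapping groups were given as well. Genes named without values only describe a list. H2-Ea was not analysed here. The section totals of 30154873 to 43957617 UMIs make counting error small above a few CPM. The alternatives tried were leaving out each section, DESeq2 1.42.0, scaling by RLE, no low-count filter, replicate blocks, all tissue spots, no muscle spots, no mitochondrial, haemoglobin and muscle genes, a doubled class score and class lists without their 2 top genes. Sections share 994 to 2429 spot barcodes in pairs, since arrays carry the same barcodes.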

Additional observations from a re-analysis of the deposited data

Results flagged for a closer look

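H2-DMb1 in tendon spots was higher in both F592A sections than in both WT sections (log2 difference 0.38), while in whole sections and in adipose, sheath fibroblast, slow muscle, vessel and wound fibroblast spots both F592A sections were below both WT sections. This opposite order drew attention to it. The joint test of differences between classes gave H2-DMb1 an unadjusted p of 0.0309 and an edgeR adjusted p of 0.466, and the difference between tendon and any 1 other class was not tested.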

How the results depend on the processing

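All 84 log2 differences of the 7 genes in whole sections under 12 alternatives were negative, and 23 passed an adjusted p of 0.05. The number called, 0 in the main test, was 6 with DESeq2 (1.26% of all genes lower), 6 with no filter on low counts (1.28%) and 0 to 5 with 1 section left out. Within classes 5 were called, and the number was 16 with DESeq2 (0.32% of all tests lower, against 0.0956%), 27 with no filter (1.17%), 11 with class lists without their 2 top genes (0.418%), 3 with a replicate block (0.136%) and 4 to 23 with 1 section left out. For the difference between classes 0 were called, 6 with no filter (4.7% of all genes, against 0.21%) and 0 to 2 with 1 section left out. The class-standardised log2 difference of the summed level ran from −1.08 to −0.46 over its 3 settings, the last with only 5 classes. The mean share of spots with a Cd74 UMI was lower in F592A by 14.4 percentage points after drawing to equal depth (−14.4). It was lower by 6.64 points without drawing (−6.64), over all kept spots, where the groups overlapped. No label states whether replicate numbers pair the sections. The deviations of WT 1 and F592A 1 correlated at r = −0.17 over 16347 genes, a single value that cannot decide it. The replicate block called 0 in whole sections and 3 within classes. With the numbers crossed, an alternative added after seeing the data, 4 and 22 were called (0.587% and 0.756% of all lower). With 1 section left out, the lone section of its group was assumed to vary like the other group. The causes of these changes were not tested. Depth limits the precision of genes at a few CPM, such as Ciita and the locus genes.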
